A study of Danio rerio with 24 samples.

Results

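The comparison described here is between uncut caudal fins of metabolic memory zebrafish (Danio rerio) and uncut caudal fins of control fish, and it covers 6 of the 24 Affymetrix zebrafish arrays of the study. The arrays were chosen by their titles, which give 3 metabolic memory samples and 3 control samples taken at 0 h after amputation. All fish were wild type. Memory fish had received streptozocin, which destroys beta cells of the pancreas, at 350 mg/kg in 5 injections, the last on day 19, and then lived 60 days without it. Control fish received citrate buffer according to one label, whereas the design text calls them untreated. The labels place the injections in the dorsal part of the fin, the organ that was sampled. Age, sex and blood glucose are not given in the sources used here. According to the labels, 15 fins were collected per time in triplicate. Whether different fish gave the 3 samples is not stated, so the p-values cover the spread among these arrays, which may be technical. The other 18 arrays, taken 12, 24 and 48 h after amputation in both arms, entered the model for its estimate of the spread and served to follow the genes named below.

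Metabolic memory is the name for changes left by diabetes that persist after blood glucose has returned to normal, and impaired fin regrowth is one of its readouts in zebrafish. The uncut caudal fin consists of bony rays and fibroblasts wrapped in a stratified epidermis, with vessels, nerves, pigment cells and resident blood cells. It renews itself slowly in the adult, so that genes of DNA replication, mitosis, protein folding and immune cells can be read in it without any injury.

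Each value is a log2 signal of a probe set, the group of probes on the array that reads 1 transcript, and a difference of 1 is a doubling. Log2 medians lay between 5.00 and 5.02 on the memory arrays and between 4.95 and 4.99 on the control arrays. Pearson correlations over tested probe sets were 0.985 to 0.989 between a memory and a control array, and 0.990 to 0.992 between arrays within either group. The 3' minus 5' signal of GAPDH, a sign of RNA integrity, was 1.13 to 1.43 on the log2 scale in memory samples and 1.23 to 1.58 in control samples. The tissue label held against its markers: all 7 epidermal markers were at a log2 signal of 4 or more on the 6 arrays, whereas all 5 measured skeletal muscle markers were below 4. The summed linear signal of the epidermal markers was 66670 to 68307 in memory fins and 64660 to 70103 in control fins. That of the 5 measured bone and fibroblast markers was 32808 to 35492 in memory fins and 30946 to 33214 in control fins, with sp7 of osteoblasts below 4 on every array.

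Of 10140 tested probe sets, 560 or 5.52% differed between memory and control fins at an adjusted p under 0.05 (limma on all 24 arrays, Benjamini-Hochberg over all tested probe sets). Of these, 367 (3.62% of all tested) were higher in memory fins and 193 (1.90%) were lower. Centring the arrays on their medians gave a nearly even split of 285 higher and 260 lower, and a fit on the 6 uncut arrays alone called 58 higher and 23 lower. Most differences were small: the median size was 0.56 for the higher and -0.57 for the lower probe sets, and 25 higher and 16 lower ones exceeded 2-fold. The typical standard error of a difference was 0.14. In 359 of the higher calls all 3 memory arrays lay above all 3 control arrays, and in 179 of the lower calls they lay below, while groups did not overlap in 23.4% of all tested probe sets. Without memory array 3 the higher calls numbered 232, without control array 2 they numbered 244, and without control array 1 the lower calls numbered 124.

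Among named genes, rfx2, a transcription factor of cilium genes, rose most in memory fins. Its log2 signal was 9.01, 9.13 and 9.12 in memory fins, against 7.23, 7.40 and 7.21 in control fins. The arrays of each group sat close together and the groups did not overlap, with a difference of 1.81 (SE 0.41, adjusted p = 0.0123 by limma). A related factor, rfx1b, rose by 0.90 (SE 0.18, adjusted p = 0.00576), and cfap20, a component of the ciliary axoneme, by 0.77, a call lost without control array 2. They were the 3 of 24 tested cilium genes that were called, none was lower, and the median of the list was 0.23, against 0.01 over the 6451 tested genes with 1 symbol. Of those 6451 genes, 384 or 5.95% were called, with 4.12% higher and 1.83% lower. All gene lists used here were chosen with earlier results of these data known, so their counts and shares are descriptions.

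The enzyme odc1, ornithine decarboxylase, starts polyamine synthesis. Its log2 signal was 11.77, 11.60 and 11.63 in memory fins, against 9.85, 10.55 and 10.36 in control fins. All memory arrays lay above all control arrays, and the difference was 1.41 (SE 0.25, adjusted p = 0.00268). It was the one called gene among 18 tested genes of polyamine synthesis and the Myc network. That was 5.56% of the list, near the 4.12% of all tested genes called higher, and the list median was -0.02. The SUMO-activating enzyme subunit sae1 rose by 1.07 with a small error (SE 0.09, adjusted p = 1.15e-06). Its memory arrays read 6.45, 6.41 and 6.48, against 5.33, 5.302 and 5.49 in control fins. Further leading rises were slc26a5, an anion transporter of the prestin family (1.14), prickle1a of planar cell polarity (1.11) and the neurexin nrxn1a of synaptic adhesion (1.08). The interferon-induced gene ifi44d (1.37) and pmaip1, the pro-death gene also known as Noxa (1.103), passed the test but kept their call less well. The call of ifi44d was lost without any 1 array other than control array 2, and that of pmaip1 without memory array 2 or 3 or control array 1 or 2. A further probe set of pmaip1 lay at 0.19 (adjusted p = 0.692), and the mean of both at 0.65 did not pass. The call of prickle1a was lost without memory array 3 or control array 1.

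Among falls, tcimb led together with cyp8b1.1, named for a sterol hydroxylase of bile acid synthesis. Log2 signals of tcimb were 8.07, 8.33 and 8.21 in memory fins, against 10.37, 10.13 and 9.05 in control fins. Control array 3 was nearest to the memory arrays but still above them, and the difference was -1.65 (SE 0.28, adjusted p = 0.00151). For cyp8b1.1 the difference was also -1.65 but with an SE of 0.47. Such errors come from the model of all arrays, later times included, and not from the uncut arrays alone. Memory fins gave 7.48, 9.08 and 7.51 for cyp8b1.1 and control fins 10.05, 9.84 and 9.15. The call of cyp8b1.1 was lost without memory array 1 or 3 or control array 1 or 2.

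Genes of nucleotides and membrane transport followed. The kinase uck2a, which salvages uridine and cytidine, had 7.12, 7.34 and 7.51 in memory fins, against 8.88, 8.97 and 8.28 in control fins, a difference of -1.39 (SE 0.16, adjusted p = 3.44e-05). The ectoenzyme nt5e, which makes adenosine from AMP at the cell surface, read 8.42, 8.74 and 8.10 in memory fins, against 9.98, 9.86 and 9.16 in control fins, a fall of 1.25 on the log2 scale (SE 0.20). In both genes control array 3 was the lowest of its group, and the groups did not overlap. The GABA transporter slc6a11a fell by 1.13, the ABC transporter abcb5 by 1.02 and the potassium channel kcnk5a by 0.92. The mitochondrial enzyme tdh, which breaks down threonine, fell by 1.09, tpd52l1 by 1.00, the vesicle and lysosome transport protein snapin by 0.96 and the transcription factor sox21a by 0.95. The call of abcb5 was lost without memory array 1 or 3 or control array 1 or 2. The plot of the leading genes on each array shows all 30.

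**Figure D1:**
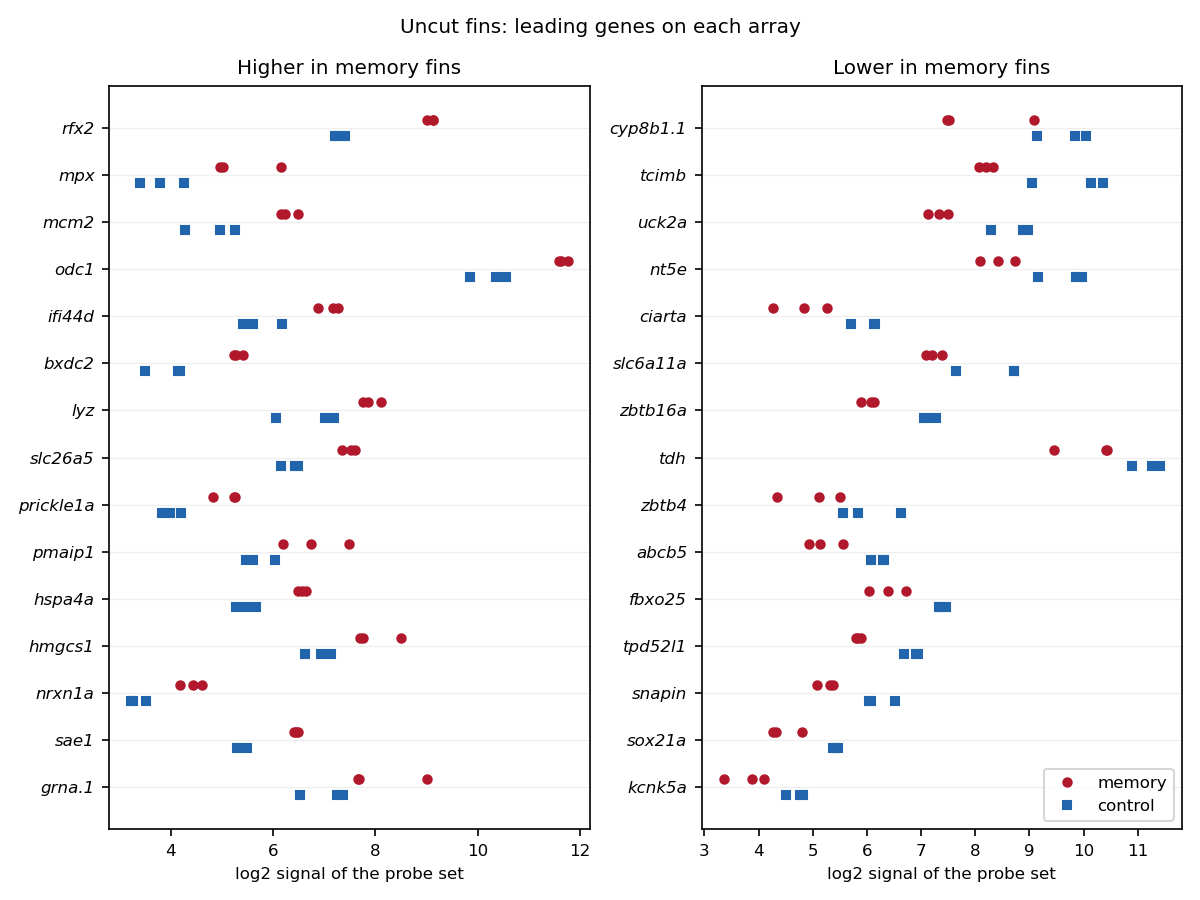
Log2 signal (horizontal axis) of the 15 named genes with the largest rises (left) and the 15 with the largest falls (right) in memory fins at 0 h; red circles are the 3 memory arrays and blue squares the 3 control arrays. The rule that chose these genes asked for groups that do not overlap, so the gap in each row is part of the choice; rows such as sae1 show close replicates and rows such as cyp8b1.1 a wide spread.

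Genes of phagocytes stood high among the rises. The granule enzyme mpx, myeloperoxidase of neutrophils, read 5.02, 4.96 and 6.15 in memory fins, against 3.80, 3.40 and 4.25 in control fins. Memory array 3 was the highest, control signals were near the lower end of the scale, and the groups did not overlap, with a difference of 1.56 (SE 0.26, adjusted p = 0.00134). Lysozyme, lyz, had 7.77, 7.86 and 8.12 in memory fins, against 6.05, 7.19 and 7.01 in control fins, a difference of 1.17 (SE 0.20, adjusted p = 0.00173). The leukocyte actin-bundling protein lcp1 rose by 0.54, the complement component c1qc of macrophages by 0.50 and grna.1, of the progranulin family, by 1.07. These were the 5 of 32 tested neutrophil and macrophage genes that rose (15.6%), and none fell. Without memory array 1 or control array 1 the list had 3 calls, and both of these arrays were needed for the call of grna.1, whose difference was 0.62 without memory array 1.

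Other phagocyte genes did not pass. The collagenase mmp13a had 8.20, 7.79 and 7.18 in memory fins, against 6.50, 6.42 and 7.24 in control fins, with overlapping groups and an adjusted p of 0.0534. The transcription factor spi1b differed by 0.14 (adjusted p = 0.692), and the oxidase subunits cyba and ncf4 by -0.09 and -0.41. Of the 32 genes 25 lay above 0, with a median of 0.22. The summed linear signal of the 5 measured marker genes was 1249.9 to 1446.9 in memory fins and 908.8 to 1108.4 in control fins. In whole fins, more cells of a type and more RNA per cell cannot be told apart. Lymphocytes could not be read through their markers, which were not among the probe sets used here, and none of 4 tested lymphocyte genes was called by limma or had an unadjusted p under 0.05.

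**Figure D2:**
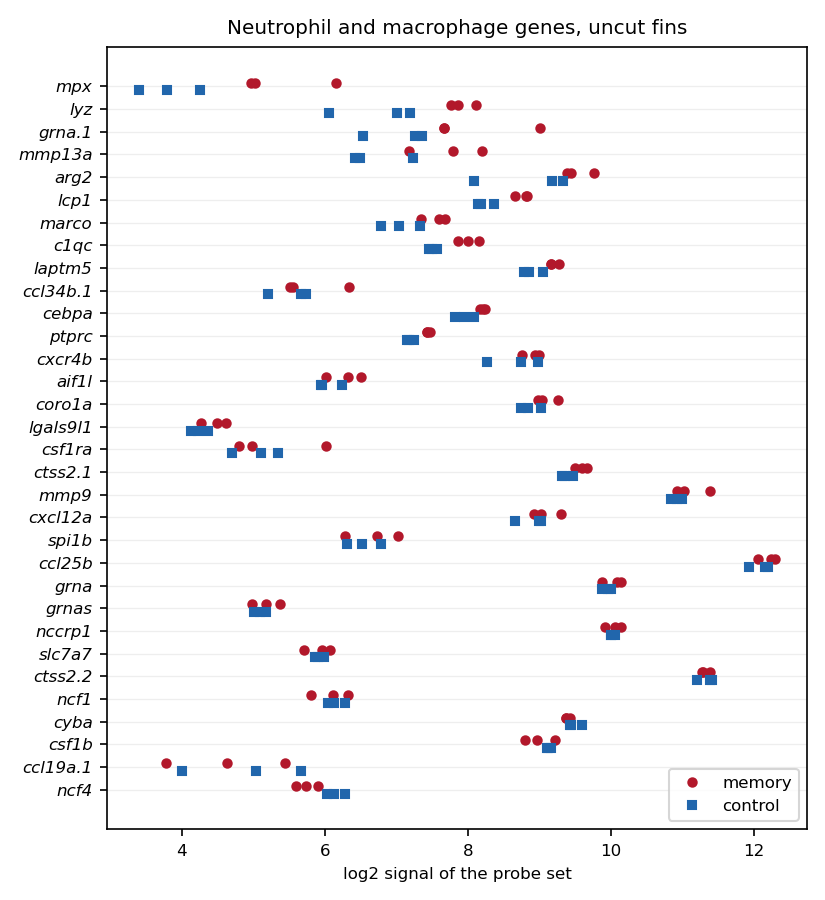
Log2 signal (horizontal axis) of the 32 tested neutrophil and macrophage genes at 0 h, ordered from the largest difference in favour of memory fins at the top; red circles are the 3 memory arrays and blue squares the 3 control arrays. The gap is wide for mpx and lyz, while most rows below them overlap.

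Genes that prepare and carry out DNA synthesis were higher in memory fins, in part. The helicase subunit mcm2, which is loaded on replication origins, read 6.49, 6.23 and 6.16 in memory fins, against 5.26, 4.96 and 4.27 in control fins. The groups did not overlap, with a difference of 1.46 (SE 0.19, adjusted p = 0.000101). Its partner mcm5 had 6.21, 6.39 and 6.55 in memory fins, against 5.62, 5.204 and 5.31 in control fins, a difference of 1.00 (SE 0.12, adjusted p = 7.76e-05). The subunit mcm4 rose by 0.91 (SE 0.17) and orc3 of the origin recognition complex by 0.69 (SE 0.15). These were 4 of 17 tested genes of licensing and the helicase (23.5%), and the list held 4 or 5 calls when any 1 array was left out. Other subunits of the same hexamer did not pass: mcm7 lay at 0.40 (95% interval -0.03 to 0.82) and mcm3 at -0.02 (-0.29 to 0.24). The loading and firing factors cdc6 and cdc45 lay at -0.39 and -0.35, and neither passed.

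Of 42 tested genes of DNA synthesis and nucleotide supply, 8 rose (19.0%), 1 fell and 30 lay above 0. The largest rises were those of tyms, thymidylate synthase (0.64), the ligase lig1 (0.63) and uhrf1, which guides maintenance methylation (0.62). The gene that fell was uck2a, described above. The sliding clamp pcna lay at 0.30 (adjusted p = 0.092) and the ribonucleotide reductase subunit rrm1 at 0.03. Without memory array 3 the list had 5 rises.

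Genes of mitosis did not rise with them. Of 43 tested mitosis and cyclin genes none was called higher and 3 were called lower, while 34 lay below 0, with a median of -0.32. The lower calls were 6.98% of the list and 79.1% lay below 0, against 1.83% and 47.4% of all tested genes. At an unadjusted p under 0.05 the limma counts were 2 higher and 17 lower. Of all 10140 tested probe sets 2095 had such a p in either direction. The spindle midzone protein prc1a read 5.15, 5.53 and 5.19 in memory fins, against 6.47, 5.70 and 6.22 in control fins, a difference of -0.84 (SE 0.20, adjusted p = 0.0166). Control array 2 was close to the memory arrays, and the groups did not overlap. The condensin subunit ncapg fell by 0.74, or by 0.42 without memory array 1 when it did not pass, and prc1b fell by 0.68. Cyclin B, ccnb1, had 4.77, 5.60 and 6.03 in memory fins, against 6.50, 5.94 and 6.39 in control fins, with overlapping groups and an adjusted p of 0.061. The kinase cdk1 lay at -0.39, the kinase plk1 at -0.57 and the proliferation marker mki67 at -0.11, and none passed. The calls in this list depended on single arrays: it had 0 without memory array 1, control array 1 or control array 3, 5 without memory array 3 and 6 without control array 2. Its median lay between -0.365 and -0.23 in the alternatives run for the lists. The plot of replication and mitosis genes shows the lists side by side.

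**Figure D3:**
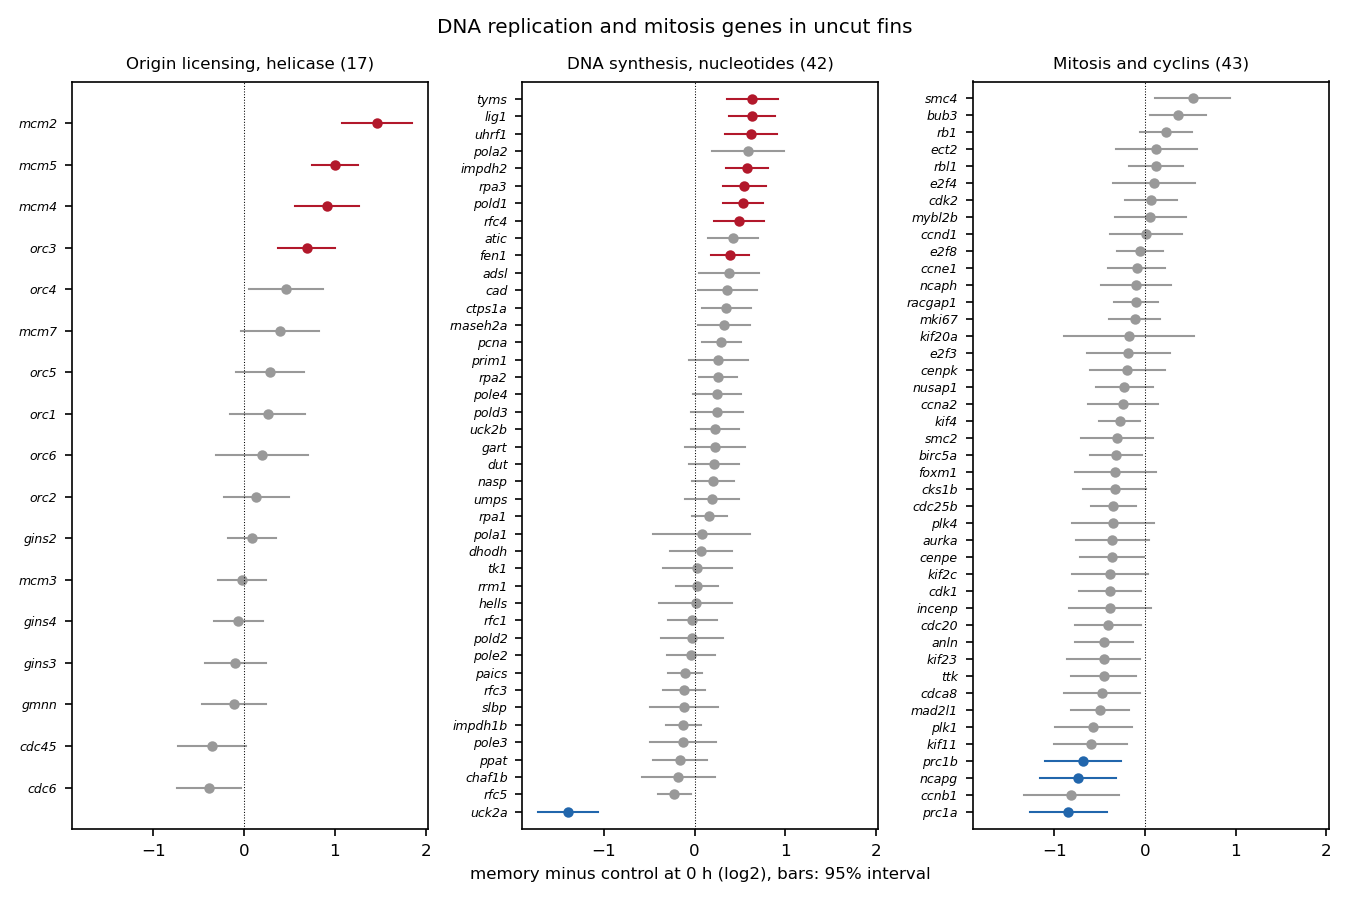
Memory minus control difference at 0 h (log2, horizontal axis) of each tested gene of origin licensing and the helicase (17 genes), DNA synthesis and nucleotide supply (42) and mitosis and cyclins (43), with 95% intervals; red marks genes that rose, blue genes that fell and grey genes that did not pass. The red points are in the left and middle panels, and 34 of 43 points in the right panel lie below 0.

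Calls among protein-folding genes were all higher in memory fins, although most members of the 3 lists did not pass. In the endoplasmic reticulum, 6 of 42 tested chaperone and unfolded protein response genes were called, all higher (14.3%), and 35 lay above 0. The chaperone hspa5, also called BiP, had 9.76, 9.97 and 9.95 in memory fins, against 9.22, 8.98 and 9.27 in control fins, a difference of 0.74 (SE 0.14, adjusted p = 0.00457). Its partner hsp90b1 read 9.38, 9.19 and 9.17 in memory fins, against 8.51, 8.37 and 8.65 in control fins, a difference of 0.74 (SE 0.11, adjusted p = 0.000366). The groups did not overlap for either gene. The secreted stress factor manf rose by 0.61 and the chaperone hyou1 by 0.56. The transcription factors of the response, xbp1 (0.17) and atf4a (0.12), did not pass. Leaving out any 1 array gave 5 or 6 calls.

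In mitochondria, 6 of 27 chaperone and import genes rose (22.2%) and none fell. The chaperonin hspd1 had 7.47, 7.77 and 7.60 in memory fins, against 6.67, 6.78 and 7.004 in control fins, with no overlap and a difference of 0.79 (SE 0.09, adjusted p = 5.51e-05). Its co-chaperonin hspe1 rose by 0.46 and the import receptor tomm20a by 0.52. The import channel gene tomm40l rose by 0.67, but its call was lost without memory array 3 or control array 1, and that of hspe1 without control array 1. The list had 3 calls without memory array 3 or control array 1. In the cytosol, 4 of 37 chaperone and heat shock genes rose. They were led by hspa4a, a nucleotide exchange partner of the heat shock chaperones, with 6.65, 6.57 and 6.49 in memory fins, against 5.27, 5.47 and 5.67 in control fins, a difference of 1.103 (SE 0.11, adjusted p = 4.52e-06). The Hsp90 co-chaperone ptges3b rose by 0.54. That list had 2 calls without memory array 1 or 2 or control array 1 or 2.

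Splicing factors were the longest list with calls in 1 direction only. Of 89 tested splicing factor and hnRNP genes, 14 rose (15.7%), none fell and 76 lay above 0, with a median of 0.17. In 35 of them all memory arrays lay above all control arrays, against 14.0% of all tested genes. The branch-site factor sf3b4 read 4.82, 4.74 and 4.88 in memory fins, against 4.02, 3.63 and 3.84 in control fins, a difference of 0.99 (SE 0.18, adjusted p = 0.00268). The snRNP proteins snrnp40 and snrpb rose by 0.76 and 0.70, and srsf10b, an SR protein, by 0.62. The call of snrpb was lost without memory array 2 or 3 or control array 2. Without these same arrays, in that order, the list had 8, 7 and 8 calls.

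Genes that build ribosomes were called in both directions. Of 90 ribosome assembly genes 9 rose (10.0%) and 2 fell (2.22%), and with arrays centred on their medians 6 rose and 2 fell. The shares of all tested genes were 4.12% and 1.83%, so the falls were near the background. Among the risers, bxdc2, an assembly factor, read 5.27, 5.40 and 5.24 in memory fins, against 4.18, 3.50 and 4.14 in control fins, a difference of 1.37 (SE 0.21, adjusted p = 0.00085). Fibrillarin, fbl, which methylates ribosomal RNA, rose by 0.74 (SE 0.11), and nolc1 of the nucleolus by 0.62. The falls numbered 0 without memory array 3 or control array 2, and 1 without memory array 2 or control array 3. None of 73 cytosolic ribosomal protein genes was called by limma, 2 had an unadjusted p under 0.05, their differences ran from -0.17 to 0.20, and their median of 0.02 turned to -0.01 with arrays centred on their medians.

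In other housekeeping lists the shares called higher were 6.38% for the proteasome, 8.11% for the respiratory chain and 7.41% for translation factors. Over all tested genes the share was 4.12%. Of 47 proteasome genes 3 rose and 40 lay above 0, with the assembly chaperone psmg1 at 0.56 (SE 0.09, adjusted p = 0.00128). Of 74 respiratory chain genes 6 rose and 56 lay above 0, with a median of 0.10 and the largest at 0.42, ndufa13 of complex I. Of 54 translation factors 4 rose, among them eif4h (0.62). With arrays centred on their medians the proteasome list had 1 call, the respiratory chain list 3 and the translation list 2 rises and 1 fall. The proteasome list had 1 call without control array 2. The respiratory chain list had 3 calls without memory array 1 or 2 or control array 1, 1 without control array 2 and 0 without memory array 3. The translation list had 1 rise without memory array 3 or control array 1 and 2 without memory array 1 or control array 2. The call of ndufa13 was lost without memory array 3 or control array 1 or 2.

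**Figure D4:**
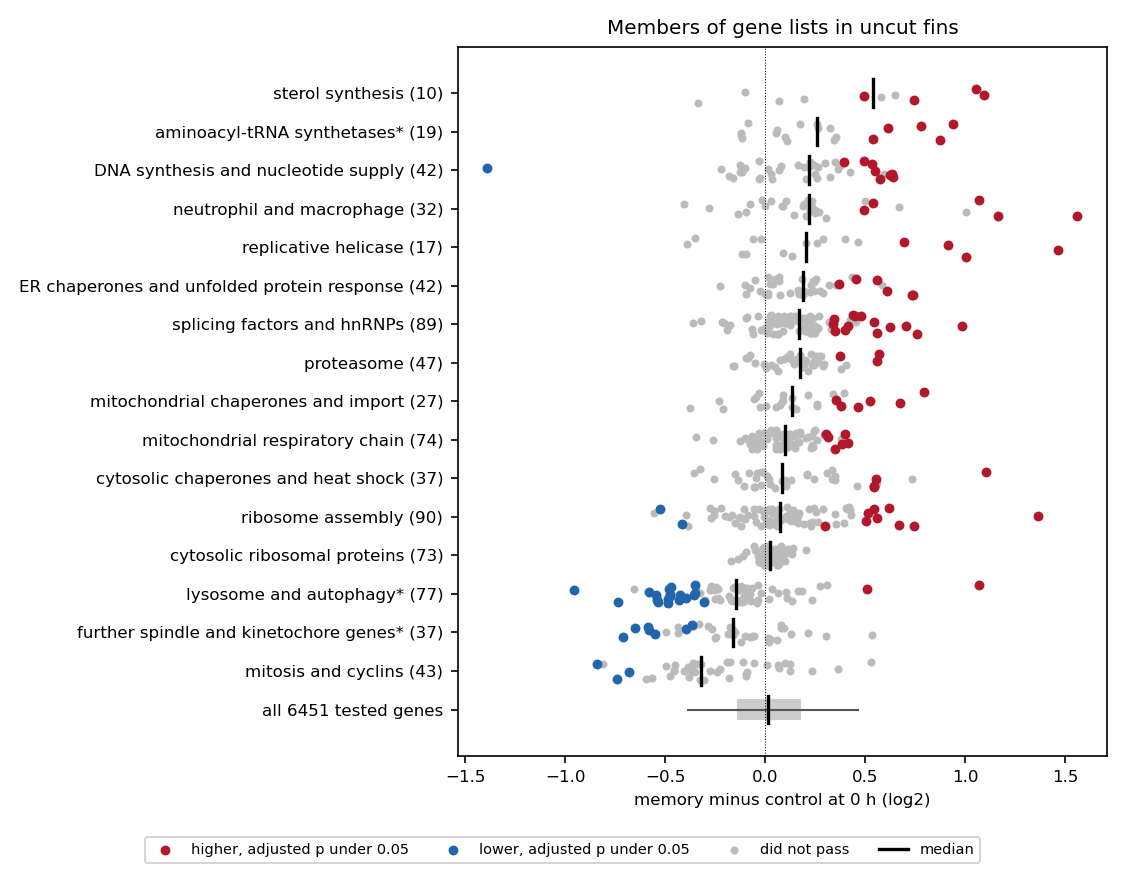
Memory minus control difference at 0 h (log2, horizontal axis) of each tested gene in 16 lists, with the number tested in brackets and a black bar at each list's median; red points rose, blue points fell and grey points did not pass, and the lowest row gives the 5th to 95th percentiles (line) and the 25th to 75th percentiles (box) of all 6451 tested genes. All lists were chosen with earlier results of these data known, and those with an asterisk were put together after called members had been seen. Splicing and chaperone lists carry calls on the right side alone, while mitosis genes carry them on the left.

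Of 10 tested genes of sterol synthesis, which supplies cholesterol, 4 rose (40.0%), none fell and the median was 0.54. The enzyme hmgcs1, which makes the precursor of mevalonate, had 7.77, 8.51 and 7.71 in memory fins, against 7.13, 6.94 and 6.63 in control fins. Memory array 2 was highest and the groups did not overlap, with a difference of 1.096 (SE 0.20, adjusted p = 0.00345). The thiolase acat2, one step earlier, read 7.27, 7.65 and 7.39 in memory fins, against 6.55, 6.21 and 6.41 in control fins, a difference of 1.05 (SE 0.11, adjusted p = 1.39e-05). The later enzymes fdft1, squalene synthase, and nsdhl rose by 0.75 and 0.49, but the call of nsdhl was lost without memory array 2 and that of fdft1 without memory array 1 or 2 or control array 2 or 3. The enzymes dhcr7 (0.65) and fdps (0.58) did not pass, and mvk lay at -0.34. Without memory array 2 the list had 2 calls.

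Lists of insulin signalling and carbohydrate metabolism held 1 or 2 calls each, all higher. These were 5.56% of insulin and Igf genes, 8.70% of glycolysis genes and 28.6% of the short gluconeogenesis list. Over all tested genes 4.12% were called higher. Of 18 tested insulin and Igf pathway genes only sgk1, a kinase downstream of insulin and glucocorticoid signals, was called, with a rise of 0.54 (SE 0.13, adjusted p = 0.0152) that was lost without memory array 3 or control array 1 or 2. The insulin receptor insra lay at 0.32 (95% interval -0.07 to 0.71) and the Igf receptor igf1rb at 0.04 (-0.52 to 0.61). The ligands igf2b and igf2a lay at 0.01 and 0.07 and foxo3b at 0.00. Of 23 glycolysis genes 2 rose: dlat of the pyruvate dehydrogenase complex (0.66) and hexokinase, hk1 (0.47). The call of hk1 was lost without memory array 2 or 3 or control array 1, so that the list had 1 call without memory array 2 or 3. Of 7 tested genes of gluconeogenesis, glycogen and related sugar pathways 2 rose, taldo1 by 0.57 and pgd by 0.41, both enzymes of the pentose phosphate pathway. Without control array 2 pgd was not called.

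Among 38 antioxidant genes none rose, and catalase, cat, and gsto1 fell by 0.47 and 0.81. Without memory array 1 or control array 1 or 2 neither was called, and without memory array 2 or 3 the list had 1 call. The superoxide dismutase sod1 lay at 0.14 and gpx1a at -0.02. The mitophagy receptor bnip3 was the 1 fall among 17 hypoxia genes, at -0.47, with a call that was kept without control array 3 and lost without each of the other 5 arrays. Lower calls were 5.26% of the antioxidant list and 5.88% of the hypoxia list, against 1.83% of all tested genes.

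Genes of DNA methylation were named in view of the question of a lasting mark. The maintenance methyltransferase dnmt1 read 6.13, 5.84 and 6.23 in memory fins, against 5.74, 5.46 and 4.51 in control fins, a difference of 0.83 (SE 0.20, adjusted p = 0.0172). Control array 3 was far below the other control arrays, and the groups did not overlap by a small gap. Its call was lost without memory array 1 or 3 or control array 3, and without control array 3 the difference was 0.47. Its partner uhrf1, given above, lost its call without memory array 3. The methyl-CpG binding zinc finger zbtb4 had 5.51, 4.34 and 5.11 in memory fins, against 6.64, 5.56 and 5.83 in control fins, a difference of -1.02 (SE 0.22, adjusted p = 0.00902), and lost its call without control array 1. No other of 22 tested genes passed: the de novo methyltransferase dnmt3ba lay at 0.03 (95% interval -0.30 to 0.36), mbd2 at 0.49 and gadd45aa at -0.53. In this methylation list 9.09% were called higher and 4.55% lower, against 4.12% and 1.83% of all tested genes. Among 54 histone and chromatin genes the shares were 5.56% and 1.85%, near those of all tested genes. The remodelling ATPases smarca5 (0.64), chd4a (0.55) and smarca4a (0.46) rose. Further probe sets of smarca5 lay at 0.30 and 0.22 without passing, and the mean over its probe sets lay at 0.38 and passed. The Polycomb gene suz12a fell by 0.48. Without control array 1 the chromatin list had 5 rises. The calls of chd4a and smarca4a were lost without control array 2, that of smarca4a also without memory array 3, and that of suz12a without any 1 array other than memory array 3.

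Clock genes were tested because the time of day of sampling is not given. The clock repressor ciarta had 5.26, 4.84 and 4.27 in memory fins, against 6.15, 6.13 and 5.70 in control fins, a difference of -1.20 (SE 0.25, adjusted p = 0.0078). The groups did not overlap and the memory arrays spread more widely. Of 27 tested clock genes bmal1b also fell, by 0.51, and cry3a rose by 0.35. Lower calls were 7.41% of the list and higher calls 3.70%, against 1.83% and 4.12% of all tested genes. The call of bmal1b was lost without memory array 1 or 3 or control array 1 or 3, with -0.34 without memory array 3, and that of cry3a without memory array 2 or 3 or control array 1 or 3. The light-induced per2 lay at 0.30 (95% interval -0.29 to 0.88), bhlhe40 at 0.72 (adjusted p = 0.0567) and the output factor tefa at -0.57 (adjusted p = 0.232). The part of the time of day in the results was not tested. Among 17 glucocorticoid targets 5.88% were called higher and 5.88% lower: sgk1 rose and the zinc finger zbtb16a fell. This gene, zbtb16a, read 6.14, 6.07 and 5.90 in memory fins, against 7.27, 7.06 and 7.13 in control fins, a difference of -1.12 (SE 0.24, adjusted p = 0.008) with groups far apart. The classical target fkbp5 lay at -0.08 and tsc22d3 at 0.05.

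In lists of the fin's own tissues, 3.51% of epidermal genes were called higher and 1.75% lower. For collagen and bone genes the shares were 5.41% and 2.70%, and over all tested genes 4.12% and 1.83%. Of 57 epidermal genes, the simple-epithelium keratins krt8 and krt18a.1 rose by 0.32 and 0.39, and krt94 fell by 0.52, or by 0.34 without memory array 1 when it did not pass. Without memory array 1 or control array 1 the list had 1 rise and no fall, without memory array 2 it had 1 rise and 2 falls, and without control array 2 or 3 it had 2 rises beside 0 or 2 falls. Among 37 collagen and bone genes mstnb, a myostatin, read 9.72, 9.58 and 9.42 in memory fins, against 8.52, 8.57 and 8.65 in control fins, a difference of 1.00 (SE 0.10, adjusted p = 1.37e-05) with no overlap. In the same list col11a2 rose by 0.88, a call kept without memory array 2 or control array 2 and lost without each of the other 4 arrays, and the bone phosphatase alpl fell by 0.63. Without memory array 1 or control array 3 mstnb was the only called gene of this list, and no single array left out kept the call of alpl except memory array 2. The fibrillar collagen gene col1a1a lay at 0.13 (95% interval -0.10 to 0.35).

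Lists of genes that fins switch on after injury held 1 call each, or 2.13% and 2.0% of their tested genes in the order below. The share called higher among all tested genes was 4.12%, so these lists lay below it. Of 47 blastema and wound epidermis genes only cyp26a1, which degrades retinoic acid, was called. It read 11.95, 11.77 and 11.91 in memory fins, against 10.72, 11.22 and 11.25 in control fins, a difference of 0.81 (SE 0.23, adjusted p = 0.039). The call held without control array 3 and was lost without each of the other 5 arrays. Of 50 injury-induced transcription factors and signals only socs3b, an inhibitor of cytokine signalling, was called, at 0.60, and it was lost without memory array 1 or control array 1 or 2. No gene was called among 27 of complement, interferon and antigen presentation, 14 of nerve and Schwann cells, 11 of the lateral line, 9 of skeletal muscle, 8 of mucous cells and ionocytes and 5 of blood. At an unadjusted limma p under 0.05 these lists held 3, 2, 0, 1, 1 and 0 genes in that order, while over all probe sets 2095 differences, the 560 called among them, had such a p. The called genes c1qc and ifi44d, given above, are not members of the complement and interferon list.

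The genes called in uncut fins were followed on the arrays taken after amputation, which are other samples. At 12 h, 168 of the 560 probe sets were called in the same direction and 68 in the opposite one, so that 42.1% were called, against 36.2% of all tested probe sets at that time. At 24 h the counts were 13 and 4, or 3.04% against 3.38% of all. At 48 h they were 19 and 11, or 5.36% against 5.69% of all. Counted in either direction, the shares at 24 and 48 h were thus near the background, which does not hold for each direction taken alone. By direction, 105 of the 367 rises (28.6%) were called higher again at 12 h, against 15.5% of all, and 63 of the 193 falls (32.6%) were called lower again, against 20.7% of all. At 24 h 3 rises (0.817%) were called higher again, against 1.48% of all, and 10 falls (5.18%) lower again, against 1.90%. At 48 h the numbers were 11 rises (3.00%), against 2.75% of all, and 8 falls (4.15%), against 2.94%. Of the 367 rises 61.9%, 64.9% and 65.1% lay above 0 at 12, 24 and 48 h, and of the 193 falls 59.6%, 69.4% and 53.4% lay below 0. Without memory array 3 the same-direction counts were 111, 3 and 11, and without control array 1 they were 100, 6 and 12. Over all 10140 probe sets the difference at 0 h correlated with those at 12, 24 and 48 h at 0.15, 0.06 and 0.04, which describes these arrays and carries no test. The interaction term of the model put the difference at 12, 24 and 48 h apart from that at 0 h for 271, 124 and 177 of the 560 probe sets, against 23.5%, 2.50% and 4.38% of all. Choosing the probe sets by their size at 0 h raises these counts by itself, so nothing is read from them.

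For 381 of the 560 probe sets no later time was called in the same direction. For 159 there was 1 such time, for 19 there were 2 and for 1 probe set there were 3. This count was not made over all tested probe sets, so no excess over the background is read from it. At 12 h alone 36.2% of all tested probe sets were called in either direction. The probe set with 3 such times belonged to fbxo25, an F-box protein of ubiquitin ligases. That probe set differed by -0.88 at 0 h, -0.58 at 12 h, -0.66 at 24 h and -0.85 at 48 h. Its mean signals after amputation, 2.31 to 3.00 in memory fins and 2.97 to 3.85 in control fins, were near the lower end of the scale, where differences are less certain. The other probe set of fbxo25 read 6.39, 6.73 and 6.04 in memory fins, against 7.46, 7.36 and 7.33 in control fins at 0 h, a difference of -0.999 (SE 0.23, adjusted p = 0.0117). It stood at -1.25, -1.44 and -0.67 at 12, 24 and 48 h, of which the last did not pass (adjusted p = 0.084), and its call at 0 h was lost without memory array 3.

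The sterol enzyme hmgcs1 was higher in memory fins by 1.72 at 12 h and 1.01 at 24 h, and by 0.35 at 48 h without passing. The sterol list as a whole had medians of 0.54, 0.50, 0.51 and 0.05 at 0, 12, 24 and 48 h, with 4, 3, 2 and 0 of 10 genes called higher. Over all tested genes 14.2%, 1.46% and 2.82% were called higher at 12, 24 and 48 h. The gene tcimb was lower again at 12 h (-0.80) and 48 h (-1.38), and slc6a11a at 48 h (-0.98). Catalase was lower at 12 h (-0.63) and 48 h (-0.57), bnip3 at 12 h (-1.54) and 24 h (-0.89), and pgd was higher at 12 h (0.29) and 48 h (0.32).

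Of the 30 leading genes, 9 were called in the same direction at 1 or more later times. Of all 560 probe sets called in uncut fins, 381 had no such time. At 12 h 15.5% of all tested probe sets and 28.6% of the 367 rises were called higher. Of the 15 leading rises 6 were called higher again at that time. Beside hmgcs1 these were slc26a5, at 1.73 (adjusted p = 4.31e-07), rfx2 at 1.34 (adjusted p = 0.0153), bxdc2 at 1.01, odc1 at 0.96 and prickle1a at 0.86. At 24 and 48 h the differences of these 5 genes did not pass. Among the 15 leading falls 2, fbxo25 and tcimb, were lower again at 12 h. The shares lower at that time were 32.6% of the 193 falls and 20.7% of all tested probe sets.

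Some genes lay on the other side of 0 at a later time. In the helicase list mcm2 was lower in memory fins by 0.60 at 12 h (adjusted p = 0.0158) and mcm5 by 0.77, and 10 of the 17 genes of their list were lower at that time, with a median of -0.52. Of the DNA synthesis rises, lig1 (-0.93), uhrf1 (-0.62) and tyms (-0.60) were also called lower at 12 h. So were orc3 (-0.54), hspd1 (-0.54), hsp90b1 (-0.38), hspe1 (-0.36) and sgk1 (-0.96). The gene sgk1 was higher again at 24 h (0.51). Of all 367 probe sets that rose in uncut fins, 105 were called higher again at 12 h and 50 lower. At that time 15.5% of all tested probe sets were called higher and 20.7% lower, so lower calls were not more frequent among the rises. Mitosis genes, whose median was -0.32 before amputation, had one of -0.68 at 12 h, with 29 of 43 lower. At 12 h 23.4% of all tested genes were lower in memory fins. The retinoic acid enzyme cyp26a1 was lower in memory fins at 12 h (-0.61), 24 h (-1.08) and 48 h (-0.90). The clock gene ciarta was higher at 12 h (0.69) and zbtb16a at 48 h (1.27, with a control mean of 3.03 near the lower end of the scale), and both passed the test. The mean signals of mpx and lyz were below 4 in both groups at 12, 24 and 48 h, so that a later difference could not be read for them. The same held at 12 h for 9 of the 30 leading genes. It also held for 50 of the 560 probe sets called in uncut fins (8.93%), near the 7.52% of all tested probe sets. The plot of differences over time shows 9 of these genes.

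**Figure D5:**
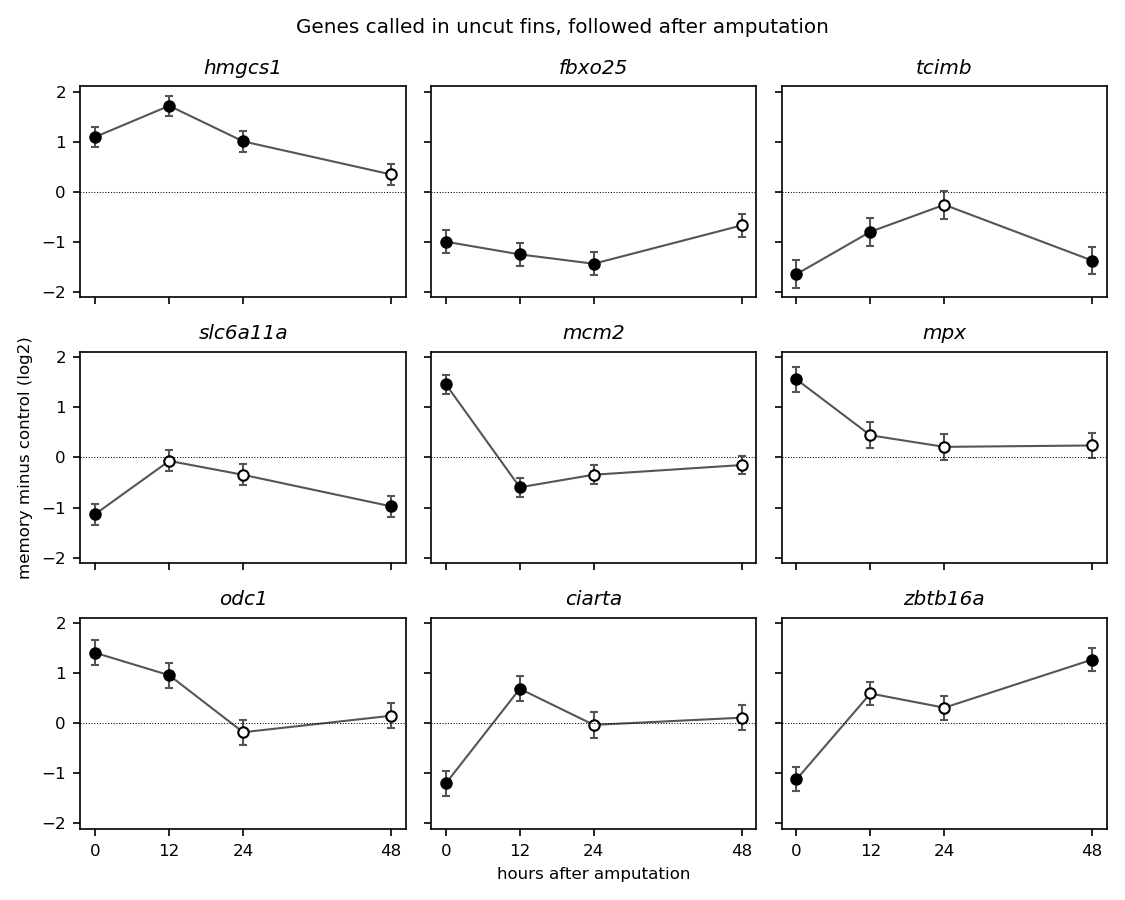
Memory minus control difference (log2, vertical axis) at 0, 12, 24 and 48 h after amputation (horizontal axis) for 9 genes called in uncut fins; bars are standard errors, filled circles passed an adjusted p under 0.05 and open circles did not. The differences of hmgcs1, fbxo25, tcimb, slc6a11a and mpx keep their sign at all 4 times, those of mcm2, odc1, ciarta and zbtb16a cross 0. Mean signals were below 4 in both groups for mpx at 12, 24 and 48 h and for slc6a11a and zbtb16a at 12 and 24 h.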

How the data were processed

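The authors deposited log2 signals, 1 per probe set and array. Per the submitters' processing notes they used Partek and GCRMA, a method that models background from the bases of each probe before quantile normalisation and summary over the probes of a set; versions are not given in the sources used here. Biotin-labelled RNA came from 6 ug per sample, per the labels. The table holds 15617 probe sets, 115 of them array controls that were not used. The rest were tested where log2 was 4 or more on at least 3 of 24 arrays: 10140 passed, 5362 did not. Of those tested, 3 passed only through the uncut memory arrays (3 called) and 5 only through the uncut control arrays (4 called). Among leading genes, mpx, lyz, nrxn1a, cyp8b1.1, zbtb4, sox21a and kcnk5a had means below 4 in both groups at every later time. Their pass rested mainly on the uncut arrays, the ones compared here.

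Symbols came from the platform annotation, updated by gene number for 10718 probe sets; 7594 tested probe sets had 1 symbol. They stand for 6451 genes, each represented by its probe set with the highest mean; 918 had several.

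One mean per group was fitted to 24 arrays with limma 3.58.1 in R 4.3.3 (eBayes, no trend), tested on simulated data, and p-values were adjusted by Benjamini-Hochberg over all tested probe sets. Adjusted p-values in the text are from this model unless another is named. The members and gene lists were chosen with earlier results of these data known. Named were the 15 largest rises and 15 largest falls among called probe sets with 1 symbol and groups that do not overlap, without clone identifiers, up to 4 called members of each list by size, and any member of the helicase, DNA methylation, clock, insulin and cell type lists. Further genes that did not pass (pcna, rrm1, xbp1, atf4a, ccnb1, cdk1, plk1, mki67, dhcr7, fdps, mvk, sod1, gpx1a, fkbp5, tsc22d3) were picked after their values were seen. Alternatives were other filters, moderation, centring, quantile normalisation, the replicate block, gene means, the 6 arrays alone, a 2-fold threshold and leaving out each array. Same-numbered samples were checked for pairing: deviations from their group means correlated at 0.02, 0.03 and 0.07 at 0 h and at -0.17 to 0.23 at the later times, so they were not treated as pairs. No batch is given in the sources used here. The number of arrays limits the precision.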

Additional observations from a re-analysis of the deposited data

Results flagged for a closer look

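For 25 of the 30 leading genes the difference between memory and control fins at a later time differed from that at 0 h by an interaction term of the limma model (adjusted p under 0.05). The values below are the memory effect at the later time minus that at 0 h, on the log2 scale, at the time with the clearest difference. Genes chosen for a large difference at 0 h tend to show a smaller one elsewhere by that choice alone, and all these differences share the 6 uncut arrays. For 9 of the 25 genes both groups had a mean signal below 4 at the later time given, so that no difference could be read there and the value mainly returns that at 0 h. These were mpx, lyz, nrxn1a, cyp8b1.1, slc6a11a, zbtb4, kcnk5a, sox21a and abcb5.

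Among genes higher in memory fins at 0 h, 4 were compared at 12 h: mcm2 gave -2.06, sae1 -1.42, mpx -1.12 and hspa4a -0.94. At 24 h the value was -2.49 for rfx2, -1.60 for slc26a5, -1.59 for odc1 and -1.48 for prickle1a. At 12 h these 4 genes were called higher again, and their differences were not called apart from those at 0 h (adjusted p = 0.599, 0.0958, 0.391 and 0.651 in that order). At 48 h it was -1.66 for pmaip1, -1.24 for nrxn1a, -1.15 for bxdc2 and -0.99 for lyz.

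Among genes lower in memory fins at 0 h, the value at 12 h was 2.21 for cyp8b1.1, 1.89 for ciarta, 1.69 for uck2a and 1.62 for nt5e. It was 1.31 for tdh, 1.19 for tpd52l1, 1.06 for slc6a11a, 1.01 for zbtb4, 0.98 for kcnk5a and 0.77 for sox21a. At 48 h it was 2.39 for zbtb16a, 1.53 for abcb5 and 0.99 for snapin. For zbtb16a the later difference lay on the other side of 0 and passed the test, as it did for ciarta, mcm2 and sae1 at 12 h.

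Of all 560 probe sets called at 0 h, the memory effect differed from 0 h for 271 at 12 h, 124 at 24 h and 177 at 48 h. Over all tested probe sets the shares were 23.5%, 2.50% and 4.38%.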

How the results depend on the processing

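None of the 112 named genes changed sign in any alternative. The counts of 367 higher and 193 lower probe sets moved by over 1.5 times on the 6 uncut arrays alone, to 58 and 23, and with an added 2-fold threshold, to 25 and 16. In both cases the alternative itself has fewer arrays or asks for more. Under no filter, other filters, other moderation, centring or a further quantile normalisation they lay within 1.5 times, and centring gave 285 and 260. Leaving out single arrays gave 232 to 361 higher and 124 to 179 lower calls. The higher count also moved by over 1.5 times without memory array 3 (232) or control array 2 (244). The lower count did so without control array 1 (124). It gave 100 to 138 calls in the same direction at 12 h, 3 to 13 at 24 h and 11 to 22 at 48 h. The effect then differed from 0 h for 190 to 277 probe sets at 12 h, 91 to 139 at 24 h and 119 to 152 at 48 h.

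With the replicate number as a block, 391 probe sets were higher and 214 lower, and the same-direction count at 24 h was 25 in place of 13. The samples share only a number, so the block is not read as pairing. Of the 112 named genes, 86 lost their call on the 6 arrays alone, 41 without control array 1, 37 without memory array 3 and 11 with centring. Of the 30 leading genes, 13, 7, 6 and 0 did. List counts on the 6 arrays alone were 2 for the helicase, 2 for endoplasmic reticulum chaperones, 1 for splicing and 1 for sterol synthesis, against 4, 6, 14 and 4 on all arrays. They were 0 for neutrophil and macrophage genes, mitosis, respiratory chain, proteasome, translation factors and antioxidant genes, and 0 higher with 1 lower for DNA synthesis. Of 11 further probe sets of 10 named genes, all had the same sign and 6 were called. Signals near the lower end of the scale, as for mpx, carry more background.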

Other observations

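Genes of 3 lists put together after called members had been seen are, like those of the other lists, given as a description only. Over all tested genes 4.12% were called higher and 1.83% lower. Of 19 tested aminoacyl-tRNA synthetase genes, whose products charge tRNAs with amino acids, 5 were higher in memory fins (26.3%) and none lower. Their median was 0.26. For wars1 the log2 signals were 4.03, 5.05 and 4.49 in memory fins, against 3.87, 3.52 and 3.36 in control fins, and for mars1 6.15, 5.75 and 5.83 in memory fins, against 5.35, 5.11 and 4.94 in control fins. The groups did not overlap for either gene, with differences of 0.94 and 0.78, and vars1 and rars1 lay at 0.87 and 0.61. Without control array 3 the list had 8 calls. Of 37 further spindle and kinetochore genes 7 were lower (18.9%) and none higher, led by knl1 (-0.71) and cdca3 (-0.65). That list had 0 calls lower without control array 3, 1 without memory array 1 or control array 1, 2 without memory array 3 and 4 without memory array 2.

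Of 77 tested lysosome and autophagy genes 19 were lower in memory fins (24.7%), 2 higher (2.60%) and 64 below 0 (83.1%), with a median of -0.15. The shares of all tested genes were 1.83%, 4.12% and 47.4% in that order. The genes that prompted the list are among its counted members, so its counts support no direction. The lysosomal membrane protein tmem106ba had 8.27, 8.70 and 8.78 in memory fins, against 9.37, 9.30 and 9.30 in control fins, a difference of -0.74 (SE 0.15, adjusted p = 0.00594). The protease inhibitor cst3, cystatin C, read 8.30, 8.70 and 8.42 in memory fins, against 9.02, 9.19 and 8.95 in control fins, a difference of -0.58 whose call was lost without memory array 1 or control array 2. The genes called higher were grna.1 and mitfa. Lower calls numbered 10, 12 and 10 without memory arrays 1, 2 and 3, and 11 and 9 without control arrays 1 and 2.

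The largest difference of the whole comparison belonged to a probe set with no symbol, chosen here after its values were seen. Its log2 signals were 11.40, 10.95 and 10.74 in memory fins, against 3.32, 10.29 and 2.85 in control fins. Control array 2 was below every memory array but near them, whereas the other control arrays were at the lower end of the scale, and the difference of 5.54 (SE 1.65) did not pass (adjusted p = 0.0527). It was 1 of 9 tested probe sets whose 3 arrays of a group spanned at least 3 log2 units. Another was the immunoglobulin light chain gene igl1c1, with 4.24, 3.24 and 7.47 in memory fins, against 4.53, 4.16 and 4.11 in control fins (adjusted p = 0.529).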
